A study of Mus musculus with 12 samples.

Results

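The interleukin 6 family examined here comprised 9 genes chosen by symbol, of 25655 genes in each count table: the ligands Lif, Cntf, Clcf1, Il6 and Osm, and the receptor chains Il6st, Lifr, Osmr and Cntfr. All 9 were present in the tables, and 7 of them had a mean of at least 10 counts per library. Il6 and Osm did not exceed 6 and 5 counts in any library. Whole retinas of C57BL/6J mice, aged 8 to 10 weeks by the labels, were profiled by total RNA sequencing 2 days after optic nerve crush (ONC) of the left eye. Every sequenced retina came from a crushed eye with a single intravitreal injection, so the sequencing included no uninjured or uninjected retina. The injections were PBS (the control), fluvastatin (a statin, which inhibits HMG-CoA reductase), MBV (matrix-bound nanovesicles, here prepared from porcine urinary bladder) or both agents together, with 3 samples per group. The 9 libraries of the PBS, fluvastatin and MBV groups were analysed, and the combined treatment was not analysed here. The sources used here do not state whether a sample held 1 retina or several, so the p-values below measure the spread between these samples, which may be technical.

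Cytokines of the interleukin 6 family signal through receptor complexes that contain gp130, the protein encoded by Il6st. LIF pairs gp130 with the LIF receptor, and oncostatin M uses the oncostatin M receptor. CNTF and the CLCF1 complex need CNTFR as a further, non-signalling chain. The complexes activate JAK kinases and the transcription factor STAT3, and SOCS3 is the classical feedback inhibitor of the pathway. In the retina, CNTF and LIF are known as injury-responsive survival factors, with Müller glia among their sources and targets.

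Counts on genes totalled 21349516 to 30992040 per library, and levels are given as CPM, a gene's share of the library's counts scaled to a common total, after TMM scaling over the 9 libraries. The 7 photoreceptor markers, none of them at 0, summed to 38337 to 41663 CPM with PBS, 34411 to 36973 CPM with fluvastatin, and 29745, 26701 and 37922 CPM in MBV replicates 1 to 3. Every treated library was below every PBS library in this sum, and in the tests 1 of the 7 fell with fluvastatin and 2 fell with MBV. The labels number the libraries in 2 sets of 6. PBS lies in one set and fluvastatin and MBV in the other, so that set and treatment cannot be told apart when either is compared with PBS, whereas MBV and fluvastatin lie in the same set. MBV replicate 3 stood apart from the other MBV libraries: its 8 monocyte markers summed to 77.2 CPM against 4.41 to 20.2 CPM in the other 8 libraries, and its 8 neutrophil markers to 5.35 CPM against 1.06 to 2.09 CPM. Of the monocyte markers 0 to 2 were at 0 in any library, and 1 of the 8 rose with MBV in the test. Lens markers summed to 58.3 to 142 CPM in the MBV libraries, 1.74 to 19.3 CPM in the fluvastatin libraries and 0.456 to 4.84 CPM in the PBS libraries.

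Promoter sequence was available for 7 members in RefSeq (GRCm38.p6), as windows from 250 bases before to 50 bases after the annotated start, and not for Osm and Clcf1. TGANTCA, the core of sites bound by AP-1 transcription factors, was searched on both strands, where the motif reads the same, and did not overlap another motif searched. It matched in the windows of 4 of these 7 members, against 7.81% of all 32851 windows and 8.97% of the genes with a window. The sequences of the 3 ligands with a match are shown from 250 to 51 bases before the start, 5′ to 3′ on the strand of the gene, with the match in capitals. They lie at chr11:4257318-4257517 (plus strand) for Lif, chr19:12765683-12765882 (minus strand) for Cntf and chr5:30012864-30013063 (plus strand) for Il6.
Lif: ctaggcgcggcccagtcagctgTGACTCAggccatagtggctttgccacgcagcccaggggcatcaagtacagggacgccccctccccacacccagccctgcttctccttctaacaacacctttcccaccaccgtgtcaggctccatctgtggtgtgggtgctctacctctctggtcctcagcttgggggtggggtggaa
Cntf: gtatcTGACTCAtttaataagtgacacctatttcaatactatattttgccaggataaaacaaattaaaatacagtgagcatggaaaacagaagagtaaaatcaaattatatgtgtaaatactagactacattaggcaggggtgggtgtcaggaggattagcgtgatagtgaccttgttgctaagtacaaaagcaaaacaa
Il6: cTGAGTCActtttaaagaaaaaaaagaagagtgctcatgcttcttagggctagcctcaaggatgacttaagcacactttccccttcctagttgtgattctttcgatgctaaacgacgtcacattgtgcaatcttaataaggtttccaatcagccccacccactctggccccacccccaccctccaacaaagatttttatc
The match begins 228 bases before the start of Lif, 245 before that of Cntf and 249 before that of Il6, and in Osmr it begins 4 bases after the start. TTCNNNGAA, the core of STAT binding sites, was also searched on both strands. These letters occurred in none of the 7 windows and in 8.3% of all windows, and a match or its absence in 300 bases is a description of the letters only.

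Lif was the only ligand among the members that passed a test against PBS with all libraries. It lies on chromosome 11 (4207557 to 4222514, plus strand, GRCm39) with 4 exons, 16.5 kb downstream of Osm and with no annotated gene between them. Its level was 1.43, 0.955 and 2.20 CPM in PBS replicates 1 to 3, from 28 to 58 counts. In the fluvastatin libraries it was 3.13, 2.28 and 8.65 CPM, from 61 to 204 counts. All 3 fluvastatin libraries were above all 3 PBS libraries, by a narrow margin for replicate 2, while replicate 3 was well above the other two. Lif rose 3.06-fold with fluvastatin (log2 fold change 1.61 ± 0.473 SE, 95% interval of the fold 1.48 to 6.34, edgeR quasi-likelihood FDR 0.0370). The call was lost without fluvastatin replicate 3 (log2 fold change 0.83, FDR 0.128), without PBS replicate 1 (FDR 0.114), without PBS replicate 2 (FDR 0.113) and in 1 fit of all 9 libraries (FDR 0.138).

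In the MBV libraries Lif was 8.04 and 13.4 CPM in replicates 1 and 2, from 220 and 293 counts, and 1.37 CPM in replicate 3, from 32 counts. The MBV group thus split into 2 libraries above every PBS library and 1 within the PBS range. Replicates 1 and 2 also had the lowest photoreceptor marker sums of the 9 libraries, whose part in the Lif values was not tested. The rise over PBS was 4.95-fold (log2 fold change 2.31 ± 0.655 SE, 95% interval of the fold 1.78 to 13.8, edgeR FDR 0.0300). Without MBV replicate 3, the library with the highest monocyte markers, the log2 fold change was 2.80 with FDR 3.01e-05. The call was lost without MBV replicate 1 (FDR 0.0829), MBV replicate 2 (FDR 0.0916), PBS replicate 1 (FDR 0.0995) or PBS replicate 2 (FDR 0.103). MBV and fluvastatin did not differ beyond their spread: the log2 difference was 0.70 ± 0.669 SE with a 95% interval from −0.80 to 2.20 (edgeR FDR 0.725). This difference was 0.030 without MBV replicate 2 and 1.48 without fluvastatin replicate 3, and did not pass without any of the 6 libraries. In whole retina, a change in the number of cells that express a gene and a change in RNA per cell cannot be told apart.

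**Figure D1:**
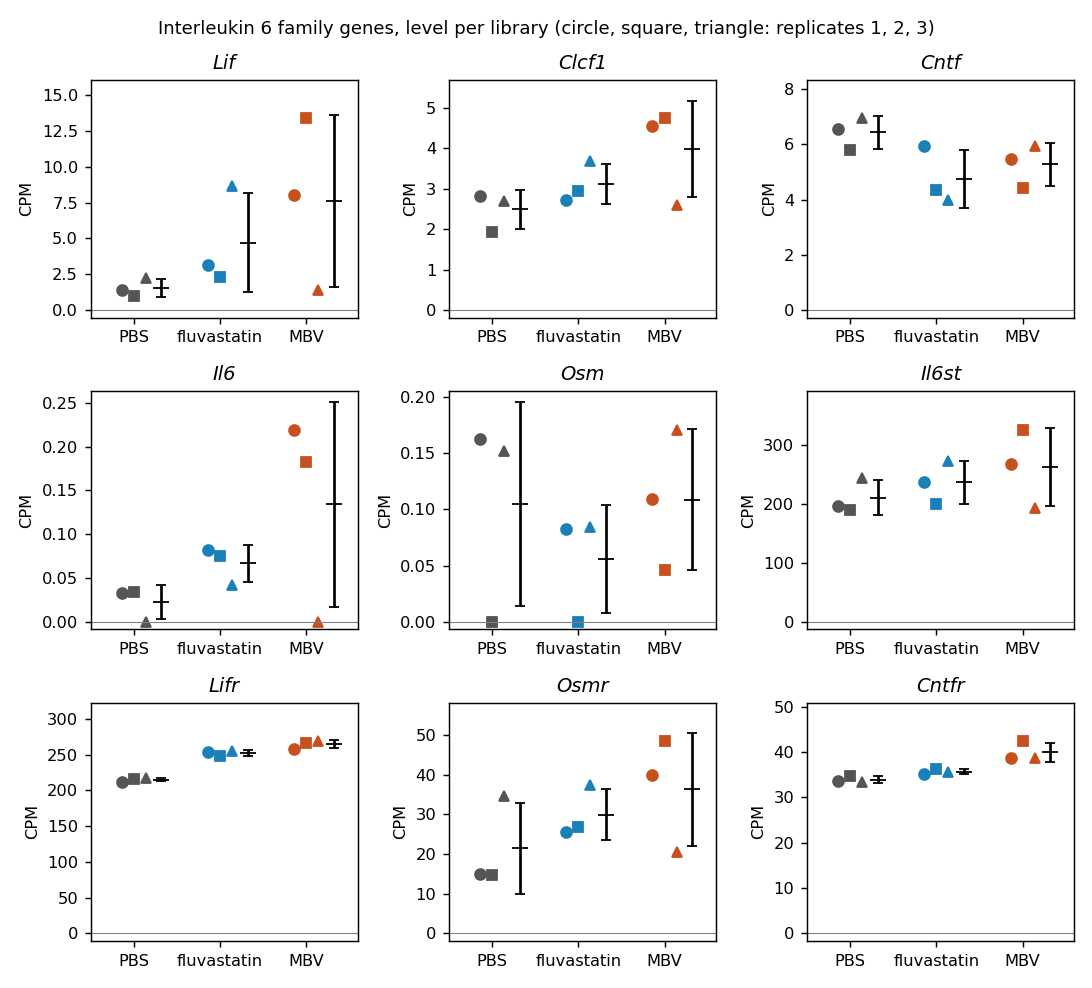
Level of each of the 9 genes in CPM (linear axes) in the PBS, fluvastatin and MBV libraries, where each point is 1 library and the bar to its right is the mean ± SD of 3. Lif, Clcf1, Il6st and Osmr in MBV replicate 3 (triangle) lie far below MBV replicates 1 and 2, while Lifr and Cntfr are close together within each group.

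Clcf1, which encodes a second ligand of the CNTF receptor complex, lies on chromosome 19 (4264292 to 4273544, plus strand). It was at 2.83, 1.94 and 2.70 CPM with PBS, 2.72, 2.95 and 3.69 CPM with fluvastatin, and 4.57, 4.75 and 2.61 CPM with MBV. MBV replicates 1 and 2 were the highest of the 9 libraries, and MBV replicate 3 was again within the PBS range. The log2 fold change against PBS was 0.32 ± 0.197 SE for fluvastatin (edgeR FDR 0.291) and 0.67 ± 0.250 SE for MBV (edgeR FDR 0.0805), and neither passed the test. Without MBV replicate 3 the MBV value was 0.89 with edgeR FDR 0.00345. It did not pass when any other single library was left out, and ran down to 0.52 (edgeR FDR up to 0.232). Gm45928, an overlapping gene on the same strand, held 2 counts over the 9 libraries.

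Cntf, the survival factor that gives the CNTF receptor its name, lies on chromosome 19 (12741024 to 12742996, minus strand) and was the ligand with the highest level per kilobase in PBS. It was at 6.56, 5.80 and 6.95 CPM with PBS, 5.93, 4.34 and 3.99 CPM with fluvastatin, and 5.48, 4.43 and 5.95 CPM with MBV. Both treated groups averaged lower than PBS, and each overlapped it through its highest library. The log2 fold change against PBS was −0.44 ± 0.158 SE for fluvastatin (edgeR FDR 0.0784) and −0.29 ± 0.138 SE for MBV (edgeR FDR 0.159), and neither passed the test. Without fluvastatin replicate 1 the first value was −0.63 with edgeR FDR 0.00628. It did not pass when any other single library was left out, and came as near to 0 as −0.33 (edgeR FDR up to 0.231). The 9 Müller glia markers moved the same way: they summed to 4891 to 5439 CPM with PBS, 2778 to 4429 CPM with fluvastatin and 2570 to 4432 CPM with MBV. In the tests, 7 of the 9 fell with fluvastatin and 4 of the 9 fell with MBV, with none at 0 in any library. Their part in the Cntf values was not tested. Gm44505, an overlapping gene on the same strand, held 44 counts over the 9 libraries.

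Il6, encoding the founding cytokine of the family, lies on chromosome 5 (30218112 to 30224979, plus strand) and was near the limit of detection, taken as 3 counts per library. It had 1, 1 and 0 counts with PBS, 2, 2 and 1 with fluvastatin, and 6, 4 and 0 with MBV. Only MBV replicates 1 and 2, the libraries with the most Lif in that group, exceeded 3 counts. Over the group totals, the ratio of MBV to PBS was 6.05 (95% counting interval 1.29 to 56.8), which covers counting error and not the spread between libraries. Il6 did not pass the edgeR test against PBS for fluvastatin (FDR 0.407) or MBV (FDR 0.183). Without MBV replicate 3 it did (FDR 0.0469), on 2 libraries of 6 and 4 counts.

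Osm, encoding oncostatin M, lies on chromosome 11 (4186420 to 4191026, plus strand) and was as scarce as Il6. It had 5, 0 and 4 counts with PBS, 2, 0 and 2 with fluvastatin, and 3, 1 and 4 with MBV. No group stood apart, and the ratio of the totals was 0.513 for fluvastatin over PBS (95% counting interval 0.115 to 1.84) and 1.07 for MBV over PBS (0.361 to 3.14). Lif and Osm, although neighbours in the genome, were therefore at different levels and only Lif passed a test; the difference between them was not tested.

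Lifr, encoding the LIF receptor chain shared by LIF, CNTF and CLCF1 complexes, had the highest mean level per kilobase of the members in each group. Per kilobase it overlapped Il6st in PBS and in MBV. Lifr lies on chromosome 15 (7120095 to 7226970, plus strand). Its level was 212, 216 and 217 CPM with PBS, 253, 248 and 256 CPM with fluvastatin, and 258, 267 and 269 CPM with MBV. The 3 groups did not overlap, and MBV replicate 3 was the highest library, in contrast to its Lif level. Lifr rose 1.17-fold with fluvastatin (log2 fold change 0.23 ± 0.0379 SE, 95% interval of the fold 1.11 to 1.24, edgeR FDR 0.00306). With MBV it rose 1.22-fold (log2 fold change 0.29 ± 0.0377 SE, 95% interval 1.15 to 1.30, edgeR FDR 0.00110). Both calls held whichever of the 6 libraries was left out, with log2 fold changes of 0.22 to 0.24 for fluvastatin and 0.28 to 0.31 for MBV. MBV against fluvastatin, within a library set, gave a log2 difference of 0.07 ± 0.0444 SE with a 95% interval from −0.03 to 0.17 (edgeR FDR 0.617).

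Cntfr, encoding the ligand-binding chain for CNTF, lies on chromosome 4 (41657498 to 41697089, minus strand). It was at 33.5, 34.8 and 33.4 CPM with PBS, 35.1, 36.3 and 35.5 CPM with fluvastatin, and 38.8, 42.4 and 38.7 CPM with MBV. As for Lifr, the groups did not overlap, although the gap between PBS and fluvastatin was small. Cntfr rose 1.17-fold with MBV (log2 fold change 0.23 ± 0.0562 SE, 95% interval of the fold 1.07 to 1.28, edgeR FDR 0.0177). The call was lost without MBV replicate 2 (FDR 0.0576), PBS replicate 1 (FDR 0.0825) or PBS replicate 3 (FDR 0.0521). With fluvastatin the log2 fold change was 0.07 ± 0.0518 SE (edgeR FDR 0.384). The difference between MBV and fluvastatin was 0.16 ± 0.0589 SE on the log2 scale, with an unadjusted p of 0.0204 in the edgeR fit and FDR 0.401.

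Il6st, encoding the common signal transducer gp130, lies on chromosome 13 (112600604 to 112646620, plus strand). It was at 196, 190 and 245 CPM with PBS, 237, 200 and 273 CPM with fluvastatin, and 267, 326 and 193 CPM with MBV. The groups overlapped in both directions, because PBS replicate 3 was high and MBV replicate 3 was low. The log2 fold change against PBS was 0.17 ± 0.114 SE for fluvastatin (edgeR FDR 0.340) and 0.31 ± 0.165 SE for MBV (edgeR FDR 0.208). Without MBV replicate 3 the MBV value was 0.49 with edgeR FDR 0.00278. It did not pass when any other single library was left out, and ran down to 0.13 (edgeR FDR up to 0.576). The fluvastatin value ran from 0.053 without fluvastatin replicate 3 to 0.30 without PBS replicate 3, and did not pass in either.

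Osmr, encoding the oncostatin M receptor chain, lies on chromosome 15 (6843058 to 6904450, minus strand), 216 kb from Lifr with 1 gene, Gm38282, between them. It was at 14.9, 14.7 and 34.6 CPM with PBS, 25.6, 26.9 and 37.4 CPM with fluvastatin, and 40.0, 48.5 and 20.5 CPM with MBV. PBS replicate 3 exceeded the other PBS libraries more than 2-fold and lay above 2 of the 3 fluvastatin libraries, and MBV replicate 3 lay below every fluvastatin library. The log2 fold change against PBS was 0.49 ± 0.286 SE for fluvastatin (edgeR FDR 0.268) and 0.76 ± 0.367 SE for MBV (edgeR FDR 0.164). Without PBS replicate 3 both passed the test, at 1.02 for fluvastatin (edgeR FDR 0.00350) and 1.28 for MBV (edgeR FDR 0.0221), and without MBV replicate 3 the MBV value was 1.05 (edgeR FDR 0.0117). Neither passed when any other single library was left out, with values down to 0.28 for fluvastatin and 0.51 for MBV. The 5 astrocyte markers, which include Gfap, summed to 70.6, 74.0 and 117 CPM with PBS, 111, 112 and 150 CPM with fluvastatin, and 96.3, 121 and 81.9 CPM with MBV, with none at 0. In each group the library with the most Osmr also had the highest astrocyte marker sum. Gfap made up a large part of these sums, at up to 68.8 CPM with PBS, 102 CPM with fluvastatin and 75.9 CPM with MBV. Gfap is also in the list of STAT3 or injury targets below, so the sum does not stand for astrocytes alone. The median log2 fold change of the 5 astrocyte markers was 0.23 with fluvastatin and 0.07 with MBV. The monocyte marker sum was the highest of its group in PBS replicate 3 (20.2 CPM against 8.05 and 8.61 CPM), where Osmr was high, and in MBV replicate 3 (77.2 CPM), where Osmr was low. The part of Gfap or of these cell types in the Osmr values was not tested.

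**Figure D2:**
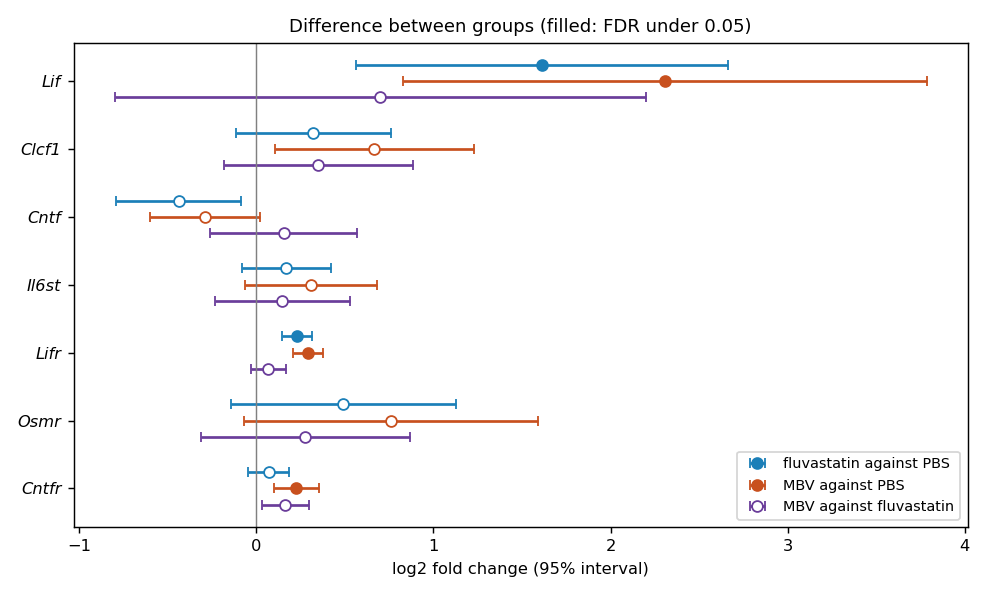
Log2 fold change with its 95% interval for the 7 members with a mean of at least 10 counts, in each of the 3 comparisons, from the edgeR fits of 2 groups. Filled points passed FDR under 0.05: Lif and Lifr with fluvastatin, and Lif, Lifr and Cntfr with MBV, whereas no point of MBV against fluvastatin is filled.

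Of the 9 members, 2 rose and none fell with fluvastatin, where 19.6% of all 18818 genes tested were called, 1761 of them higher and 1926 lower. With MBV, 3 rose and none fell, where 26.1% of 18897 genes were called, 2271 of them higher and 2666 lower. Between MBV and fluvastatin, edgeR called 0 of 9 members and 0.0588% of 18721 genes. In that comparison 1 member had an unadjusted p under 0.05, and DESeq2 also called none. The median log2 fold change of the 9 members was 0.23 with fluvastatin, 0.31 with MBV and 0.28 between them, beside medians of −0.01, 0.01 and 0.01 over all genes tested. Members above the limit of detection whose libraries did not overlap and were higher with fluvastatin numbered 3 (Lif, Lifr and Cntfr), against 17.3% of all genes. Il6 is not counted, since libraries of both groups held 1 count. Lifr and Cntfr were also higher without overlap in MBV against PBS, where 20.3% of genes were, and in MBV against fluvastatin, where 8.53% were. Both comparisons with PBS use the same 3 PBS libraries. When MBV replicate 3 was left out, 7 of 9 members were called higher with MBV (all but Cntf and Osm). There 30.1% of genes were called, 2638 of them higher and 3026 lower. Il6 was among the 7 on 6 and 4 counts in MBV replicates 1 and 2.

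Levels between genes were compared per kilobase of exon sequence. For Cntf the exon length used, 4744 bases, exceeds the span of the counted gene (12741024 to 12742996). Its level per kilobase is therefore understated, and places and overlaps that involve Cntf are not settled. In PBS the order was Lifr with 15.6, Il6st with 13.5, Cntfr with 4.56, Osmr with 1.73, Cntf with 1.36, Clcf1 with 0.654, Lif with 0.332, Osm with 0.0461 and Il6 with 0.00914 CPM per kilobase. Lifr and Il6st overlapped over the 3 PBS libraries, as did Osmr and Cntf, and Osm and Il6, and the other neighbours in this order did not. Cntf aside, the 4 receptor chains were thus above the ligands on average. With the lengths used, Lif moved from the seventh place in PBS to the fifth in fluvastatin (1.02 CPM per kilobase) and MBV (1.65). There it overlapped Cntf, and in MBV also Osmr, but its place relative to Cntf is not settled.

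Lif, Clcf1, Il6st and Osmr ranked the libraries alike. Over the 9 libraries, the Pearson correlation of log2(CPM + 0.5) with Lif was 0.946 for Il6st (Spearman 0.950, exact permutation p adjusted over 6 relations 0.000761 and 0.00212). For Clcf1 it was 0.932 (Spearman 0.900, adjusted exact permutation p 0.00143 and 0.00406), and for Osmr 0.893 (Spearman 0.900, adjusted exact permutation p 0.00347 and 0.00406). Without the 2 libraries farthest from the median Lif level, MBV replicate 2 and fluvastatin replicate 3, r was 0.877 for Il6st, 0.913 for Clcf1 and 0.836 for Osmr. Within the 6 fluvastatin and MBV libraries, which share a library set, r was 0.975, 0.928 and 0.982 (adjusted exact permutation p 0.00833, 0.0472 and 0.0292). The 3 PBS libraries were too few for a value of their own. The permutations moved values freely across treatment groups, so differences between groups enter these p-values. How many of all genes follow Lif this closely was not counted, and genes outside the family did so more closely (below). These values therefore do not show a relation particular to the family. The remaining relations with Lif did not pass: r was 0.614 for Lifr, 0.625 for Cntfr and −0.636 for Cntf (adjusted exact permutation p 0.074 for each).

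**Figure D3:**
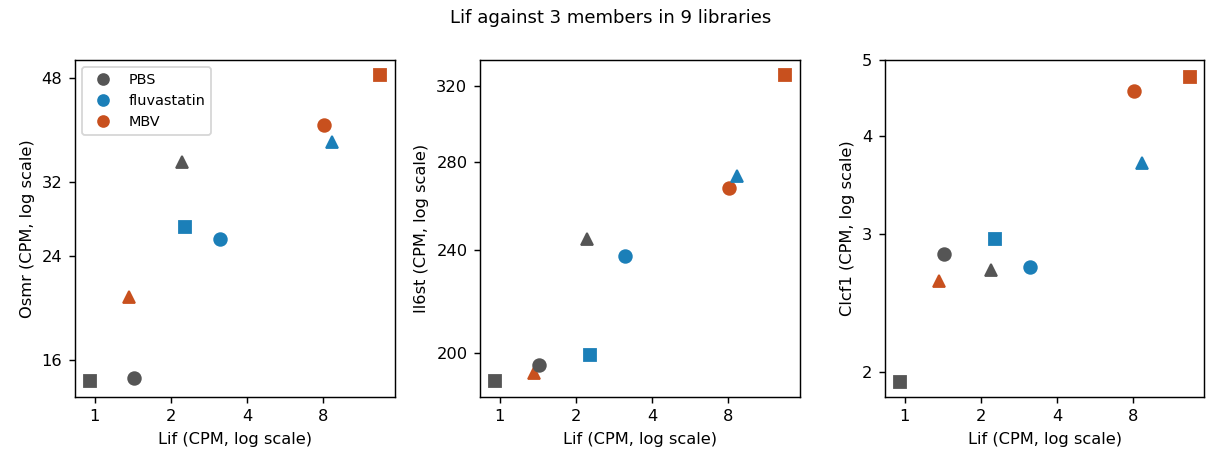
Level of Lif (x axis) against Osmr, Il6st and Clcf1 (y axes) in CPM on log scales, with 1 point per library coloured by group and circle, square and triangle for replicates 1 to 3. MBV replicate 2 is highest for all 4 genes, and MBV replicate 3 lies among the PBS libraries for Lif.

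Among 15055 other genes with a mean of at least 10 counts, the pattern of Lif over the 9 libraries was most like that of Gadd45b (r 0.991), Gm16867 (0.990) and Dlx3 (0.985). Gadd45b, a stress-inducible gene of the GADD45 family, was at 5.15 to 9.46 CPM with PBS and 8.08 to 17.2 CPM with fluvastatin. With MBV it was at 16.5 and 23.4 CPM in replicates 1 and 2, and at 5.86 CPM in replicate 3. Gm16867 overlaps Entpd4 and 3 further annotated genes, so its counts may be shared with theirs. For Osmr the most similar genes were Cebpd (0.991), Bcl3 (0.986) and Stat3 (0.984), and for Il6st they were Rnf144b (0.985), Ahr (0.981) and Dlx3 (0.977). These correlations were the highest of many and rest on 9 libraries in 3 groups, and they are given as a description.

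The 3 genes nearest to Osmr belong to the signalling side of the family: Stat3 encodes the transcription factor the complexes activate, and Cebpd and Bcl3 encode transcriptional regulators known to be induced by it. Stat3 was at 87.4, 83.9 and 156 CPM with PBS, 136, 121 and 180 CPM with fluvastatin, and 185, 239 and 101 CPM with MBV. Cebpd was at 11.4, 9.93 and 41.3 CPM with PBS, 34.6, 31.7 and 61.0 CPM with fluvastatin, and 72.9, 107 and 19.4 CPM with MBV. Bcl3 was at 1.30, 1.36 and 5.66 CPM with PBS, 4.70, 4.08 and 6.53 CPM with fluvastatin, and 6.50, 10.6 and 2.14 CPM with MBV. In each of them PBS replicate 3 was the high library of its group and MBV replicate 3 the low one. None of the 3 passed the edgeR test with all libraries: the log2 fold changes with MBV were 0.68 (FDR 0.141) for Stat3, 1.68 (FDR 0.0839) for Cebpd and 1.22 (FDR 0.197) for Bcl3. Without MBV replicate 3 they passed, with edgeR FDR 0.00381, 0.00230 and 0.0175. Without PBS replicate 3 all 3 passed with fluvastatin (edgeR FDR 0.00683, 0.00238 and 0.00220) and with MBV (edgeR FDR 0.0420, 0.0206 and 0.0299). None of the 3 passed against PBS when any other single library was left out. Stat3 overlaps Stat5a, and Cebpd overlaps Spidr, in the annotated coordinates. Socs3, named here after its values were seen because it is the feedback inhibitor of the pathway, was at 7.15, 6.28 and 17.1 CPM with PBS, 14.1, 11.8 and 25.6 CPM with fluvastatin, and 17.8, 28.4 and 5.22 CPM with MBV. Its log2 fold change was 0.76 with fluvastatin (edgeR FDR 0.183) and 0.75 with MBV (edgeR FDR 0.347). Socs3 passed with fluvastatin without PBS replicate 3 (1.35, edgeR FDR 0.0129) and with MBV without MBV replicate 3 (1.18, edgeR FDR 0.0152). Without fluvastatin replicate 3 the first value was 0.35, and without MBV replicate 2 the second was 0.20.

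**Figure D4:**
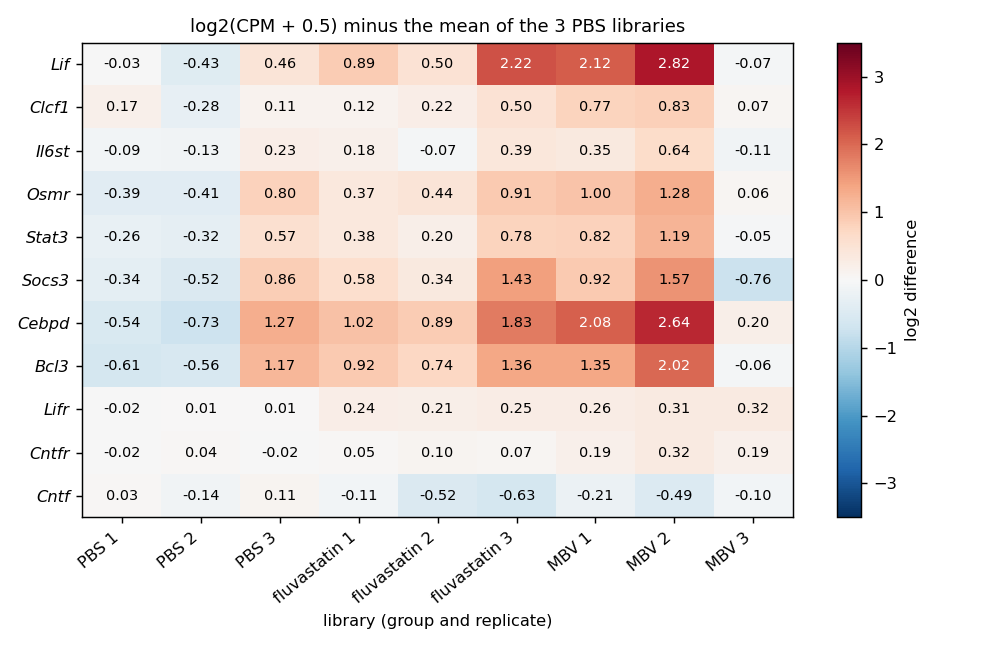
Log2(CPM + 0.5) of 7 members and 4 signalling or target genes in each library, as the difference from the mean of the 3 PBS libraries; red is higher and blue lower. Lif, Clcf1, Il6st, Osmr, Stat3, Socs3, Cebpd and Bcl3 share high values in MBV replicate 2 (0.64 to 2.82) and values near or below the PBS mean in MBV replicate 3 (−0.76 to 0.20), unlike Lifr (0.31 and 0.32) and Cntfr (0.32 and 0.19).

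Of the 11 other ligands and receptor chains of the family, 5 had a mean of at least 10 counts. Il6ra, encoding the ligand-binding receptor chain for interleukin 6, was at 1.63, 1.33 and 1.75 CPM with PBS, 1.57, 2.24 and 2.33 CPM with fluvastatin, and 3.98, 4.98 and 2.61 CPM with MBV. All MBV libraries were above all PBS libraries. Il6ra rose 2.44-fold with MBV (log2 fold change 1.29 ± 0.252 SE, edgeR FDR 0.00615) and passed whichever library was left out. With fluvastatin its log2 fold change was 0.39 (edgeR FDR 0.263). Ctf1, encoding the LIF receptor ligand cardiotrophin 1, was at 1.72, 1.88 and 2.24 CPM with PBS, 0.989, 0.897 and 1.36 CPM with fluvastatin, and 1.43, 1.32 and 1.75 CPM with MBV. Ctf1 fell with fluvastatin (log2 fold change −0.85 ± 0.236 SE, edgeR FDR 0.0297), a call that was lost in DESeq2 (FDR 0.0522) and without fluvastatin replicate 2 (FDR 0.107) or any 1 PBS library (FDR 0.0647 to 0.0907). No other gene of this list passed in either comparison with PBS.

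Of 12 genes of JAK and STAT signalling, edgeR called 0 with fluvastatin, and DESeq2 also called 0, while 4 had an unadjusted p under 0.05. With MBV, 2 rose and 2 fell. Over all genes, 19.6% were called with fluvastatin and 26.1% with MBV. The log2 fold changes were small, at 0.21 for the kinase gene Tyk2 (FDR 0.0359), 0.28 for the adaptor gene Gab1 (FDR 0.0386), −0.17 for Jak2 (FDR 0.0325) and −0.14 for Jak1 (FDR 0.0418) in edgeR. Each of these 4 calls was lost without at least 4 of the 6 libraries in turn, among them MBV replicate 1, without which none of the 12 was called. The median log2 fold change of the list was 0.02 with fluvastatin and 0.08 with MBV.

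Of 13 feedback inhibitors, 2 rose and 3 fell with fluvastatin, and 5 rose and 2 fell with MBV, where 19.6% and 26.1% of all genes were called. Socs7, an adaptor of the SOCS family, rose by 0.18 with fluvastatin (edgeR FDR 0.0104) and by 0.26 with MBV (edgeR FDR 0.00182) on the log2 scale. Socs4, of the same family, fell in both, with log2 fold changes of −0.24 (edgeR FDR 0.00648) and −0.23 (edgeR FDR 0.0138). Pias3, encoding an inhibitor of STAT3, rose by 0.26 in both (edgeR FDR 0.0195 with fluvastatin and 0.0295 with MBV). Socs6 fell in both, with log2 fold changes of −0.25 (edgeR FDR 0.0367 and 0.00991). Ptpn2, encoding a phosphatase that acts on JAK and STAT proteins, rose with MBV (0.34, edgeR FDR 0.0166) and had a log2 fold change of 0.17 with fluvastatin (edgeR FDR 0.0745). Pias1 fell with fluvastatin (−0.16, edgeR FDR 0.0360). Without PBS replicate 1 the calls of Socs7 with fluvastatin (FDR 0.0547), Socs4 with MBV (FDR 0.0671), Ptpn2 (FDR 0.0661) and Pias1 (FDR 0.136) were lost, and 2 of the 13 were called in each comparison, where 9.26% (fluvastatin) and 14.5% (MBV) of all genes were. Pias3 with fluvastatin was lost without fluvastatin replicate 2 (FDR 0.0660), and with MBV without PBS replicate 1, PBS replicate 3 or MBV replicate 1 (FDR 0.0731, 0.0814 and 0.0775). Socs6 with fluvastatin was lost without PBS replicate 1, PBS replicate 3, fluvastatin replicate 1 or fluvastatin replicate 2 (FDR 0.111, 0.120, 0.0662 and 0.145). Ptpn2 was also lost without PBS replicate 3 (FDR 0.0536) and MBV replicate 1 (FDR 0.0703), and Pias1 without PBS replicate 2, fluvastatin replicate 2 or fluvastatin replicate 3 (FDR 0.120, 0.0770 and 0.102).

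Of 28 genes listed as STAT3 or injury targets, 2 rose with fluvastatin, 5 rose with MBV and none fell in either, where 19.6% and 26.1% of all genes were called. Vegfa, encoding vascular endothelial growth factor A, rose in both, by 0.51 ± 0.0722 SE (edgeR FDR 0.00167) and 0.59 ± 0.0581 SE (edgeR FDR 0.000531) on the log2 scale, and passed whichever library was left out. Bcl2l1, encoding the survival protein BCL-XL, rose by 0.22 with fluvastatin (edgeR FDR 0.0135) and 0.23 with MBV (edgeR FDR 0.0253). The Bcl2l1 call with fluvastatin was lost without PBS replicate 1, PBS replicate 2 or fluvastatin replicate 3 (FDR 0.0624, 0.0546 and 0.0506). With MBV it was lost without PBS replicate 1 or 2 (FDR 0.0819 and 0.0806) or MBV replicate 1 or 2 (FDR 0.0983 and 0.0728). Ccl2, encoding a monocyte-attracting chemokine, was at 0.292, 0.0341 and 0.190 CPM with PBS, 0.577, 0.0374 and 1.40 CPM with fluvastatin, and 0.877, 1.05 and 0.727 CPM with MBV. Its counts per library were low, at 1 to 9 with PBS, 1 to 33 with fluvastatin and 17 to 24 with MBV. The lowest PBS and fluvastatin libraries were thus under the 3-count limit of detection. All 3 MBV libraries were above all PBS libraries (log2 fold change 2.31 ± 0.522 SE, edgeR FDR 0.0117), whereas the fluvastatin libraries ranged from the PBS level to the highest of all 9. Mcl1, a survival gene of the BCL2 family, rose by 0.31 with MBV (edgeR FDR 0.0283), a call lost without MBV replicate 1 or 2 (FDR 0.0833 and 0.0682) or PBS replicate 1 or 2 (FDR 0.106 and 0.0838). With MBV, the number called in this list moved from 5 to 16 of 28 when MBV replicate 3 was left out (30.1% of all genes). It moved to 13 when PBS replicate 3 was left out (22.1% of all genes). By contrast, leaving out PBS replicate 1, PBS replicate 2, MBV replicate 1 or MBV replicate 2 lost the calls of both Bcl2l1 and Mcl1. With fluvastatin the number called moved from 2 to 9 without PBS replicate 3 (16.2% of all genes) and to 7 without fluvastatin replicate 1 (23.5% of all genes). The fluvastatin number fell to 1 without PBS replicate 1 (9.26% of all genes) and to 1 without fluvastatin replicate 3 (2657 of 18726 genes). It stayed at 2 without PBS replicate 2 (2621 of 18646 genes) and was 3 without fluvastatin replicate 2 (2113 of 18688 genes).

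Between MBV and fluvastatin, edgeR called 0 genes of these 4 lists. At an unadjusted p under 0.05 there were 2 of the other family genes, 1 of JAK and STAT signalling, 1 feedback inhibitor and 6 target genes. DESeq2 called 2 target genes in this comparison, the acute-phase gene Lcn2 and the metallothionein gene Mt1, which are named here after their values were seen.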

How the data were processed

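The authors extracted RNA with TRIzol, prepared TruSeq total RNA libraries, sequenced paired reads of 75 bases on a NextSeq500, and aligned and counted them on GRCm39 in CLC Genomics Workbench. The deposited values used here are raw counts per gene, without normalization. Whether counting used strand is not given in the sources used here. Each table also held the authors' fold changes, p-values and FDRs and mean columns, which were not used. The 6 count columns of the combined treatment's table name no sample and were not used, so that its comparison and the planned main effects were left out.

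Counts were tested in R 4.3.3 with edgeR 4.0.16 (TMM, quasi-likelihood test, 2 groups per fit, genes counted in 1 or more of the 6 libraries), with Benjamini-Hochberg adjustment over all genes tested and calls at FDR under 0.05. DESeq2 1.42.0 and the other settings in the closing section were alternatives. A correction of the statistics for genomic inflation was added after seeing the data. The procedure was tested on simulated counts drawn from the fitted spread, without a difference between library sets. That test therefore does not cover the inflated statistics or the mixing of set and treatment in the comparisons with PBS. Gene positions are those of the deposited count tables, exon numbers and lengths are from GENCODE release M39, and promoters from RefSeq. Correlations used scipy 1.17.1. Counting intervals and the 3-count limit cover only the error of counting, because reads without molecular identifiers are not independent molecules.

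The members and gene lists were chosen with earlier results of these data known. Named genes are the 9 members, up to 4 called genes with the smallest FDR per list and comparison, and the 3 genes most correlated with Lif, Osmr and Il6st. Beyond this rule, Socs3, Lcn2 and Mt1 are named as stated. Of 12 marker lists, those for monocytes, neutrophils, lens, Müller glia, photoreceptors and astrocytes are given in the report and the others in the closing section.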

Additional observations from a re-analysis of the deposited data

How the results depend on the processing

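With RLE normalization, DESeq2 or a minimum of 10 counts in 2 of 6 libraries, the number of members called against PBS stayed at 2 (fluvastatin) and 3 (MBV). One fit of all 9 libraries gave 1 with fluvastatin. Leaving out single libraries gave 1 to 3 members with fluvastatin and 1 to 7 with MBV, and 1726 to 4402 and 2711 to 5664 genes in all. The edgeR statistics were inflated 3.98-fold (fluvastatin), 4.90-fold (MBV) and 1.82-fold (MBV against fluvastatin) in the median, and the cause was not tested. Divided by this inflation, 0 members and 0 genes were called by edgeR in either comparison with PBS, with 1809 and 1949 genes at an unadjusted p under 0.05, and Lifr had FDR 0.347 and 0.270.

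MBV against fluvastatin called 11 genes in all. It called 122 with DESeq2, 5 with the minimum of 10 counts, 38 in the fit of all 9 libraries, 1 after division by inflation and 0 to 197 when single libraries were left out. Without MBV replicate 2 the Il6st difference reversed to −0.038 and did not pass; over the fits without single libraries it ran up to 0.33. Of 588 alternative values for 49 gene results, 473 kept direction and side of the threshold, 91 lost the call, 23 gained it and 1 reversed.

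Replicate numbers are shared between groups. Deviations of same-numbered libraries from their group means correlated from −0.366 to 0.159, and those of differently numbered libraries from −0.283 to 0.348. With 3 libraries per group these deviations are not independent, so the values cannot decide whether same-numbered libraries share more than a number. With the replicate block, 4 members were called with fluvastatin (Il6st and Osmr added) and 2 with MBV (Lif not called, FDR 0.103). In MBV against fluvastatin edgeR with the block called 0 genes, with 1631 at an unadjusted p under 0.05.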

Other observations

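The other marker lists, given here with the astrocyte list again, were measured in the same libraries. Of 9 markers of retinal ganglion cells, the neurons whose axons are crushed, 3 rose with fluvastatin and 1 with MBV, and their sum was 609 to 748 CPM with PBS, 689 to 933 CPM with fluvastatin and 648 to 797 CPM with MBV. Of 7 pigment epithelium markers, 1 rose and 4 fell with each treatment, and their sum was 289 to 295 CPM with PBS, 220 to 261 CPM with fluvastatin and 202 to 242 CPM with MBV. Microglia markers summed to 77.1 to 89.6, 66.7 to 79.5 and 72.4 to 91.7 CPM, and 1 of 8 fell with each treatment. Of 5 astrocyte markers edgeR called 0 with either treatment, with sums of 70.6 to 117, 111 to 150 and 81.9 to 121 CPM. One of 5 endothelial markers rose with MBV, with sums of 247 to 303, 232 to 257 and 222 to 272 CPM. Surface epithelium markers summed to 1.79 to 5.29, 0.618 to 3.69 and 0.639 to 1.28 CPM, and 3 of 4 fell with MBV. Of 4 T cell markers edgeR called 0, and their sum did not exceed 1.37 CPM in any library.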
